A study of Rattus norvegicus with 4 samples.

Results

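Aminoacyl-tRNA synthetases, centred on Eprs, were examined in the m6A-seq data of neonatal rat cardiac fibroblasts (CFs). The members were the 35 listed synthetase genes and the 3 genes of auxiliary scaffold proteins, found in the peak lists by the NCBI rat gene ID of each symbol. All 38 symbols matched 1 gene ID each, and 29 of these genes had a called m6A peak in at least 1 list, out of 8729 genes with a peak in all. The members comprised 19 cytosolic synthetases, 16 mitochondrial synthetases and 3 scaffold proteins. Eprs is listed as gene ID 289352, for which RefSeq gives the symbol Eprs1.

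The CFs were primary cells from the hearts of healthy Sprague-Dawley rats no older than 3 days, without any genetic change of the animals. They were transfected for 48 h with an empty plasmid (Vector group, labelled as control and WT) or with a plasmid that carried rat FTO cDNA (FTO group, labelled as FTO overexpression). FTO is an enzyme that removes the methyl group of m6A from RNA. Each group had 1 m6A-IP library, made from RNA fragments pulled down with an anti-m6A antibody, and 1 input library, and the authors deposited 1 list of called peaks per group. Since neither kind of library was repeated, differences between Vector and FTO have no check by replicates and were not tested. The sources do not give the number of animals behind a library.

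A synthetase joins an amino acid to its tRNA, which then carries it to the ribosome. Most synthetases exist as a cytosolic and a mitochondrial protein from separate nuclear genes. Eprs1 is a fusion of the glutamyl and the prolyl enzyme, and part of the cytosolic enzymes are held together by the scaffold proteins in the multi-synthetase complex. Proline is abundant in collagen, and the study followed this enzyme in cardiac fibrosis.

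The Vector list contained 21249 peaks and the FTO list 17796. The values are the length of each peak in bp, with a transcript and a gene ID, and contain no position, height or enrichment. Depth is unknown, and the number of reads, the level of a transcript and its methylation cannot be told apart in the number of called peaks. Fto, the gene on the plasmid, had 3 Vector peaks and 9 FTO peaks, and reads of the plasmid were not separated from those of the endogenous gene. As a check of the cell type, peaks were listed in either group for 5 of 10 fibroblast markers and 6 of 7 cardiomyocyte markers. The same held for 1 of 5 endothelial, 1 of 4 smooth muscle and 3 of 4 macrophage markers. In this order, Vector peaks were found for 4, 6, 0, 1 and 2 markers, beside 32.2% of all protein-coding genes. FTO peaks were found for 4, 5, 1, 1 and 3 markers, beside 29.7% of those genes. The marker lists are short, and their counts were not tested against these shares. Pdgfra, a defining fibroblast receptor, had 7 Vector and 6 FTO peaks, and the fibroblast genes Col1a1, Col1a2, Col3a1, Vim and Dcn had none. Myh6 of cardiomyocytes had 7 and 7, Myh11 of smooth muscle 17 and 15 and the leukocyte gene Ptprc 10 and 7. These are at least as many as for Pdgfra in both lists. Myh7 with 8 and 5 and Tnnt2 with 4 and 7, of cardiomyocytes, had more in 1 list and fewer in the other. The remaining markers of other cells had fewer than Pdgfra in both lists. Summed over each marker list, Vector and FTO peaks numbered 11 and 9 for fibroblasts, 23 and 25 for cardiomyocytes, 0 and 2 for endothelium, 17 and 15 for smooth muscle and 12 and 9 for macrophages. A called peak is not a transcript level, and the part of other cells in the results was not tested.

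No genome of the authors' build was used, so the sequence under a peak is not shown. The promoters of the members held a sequence feature that was found, among the members, in cytosolic enzymes alone. Cytosolic synthetase genes are known targets of the amino acid starvation response, in which the factor ATF4 binds elements with the core TGATGNAA. RefSeq promoters of the GRCr8 build, from 250 bases before to 50 bases after each start, were held for 36 members, while Gars1 and Rars1 had no entry. The motif TGATGNAA was searched on both strands and was found in 7 of 17 cytosolic synthetases, in 0 of 16 mitochondrial synthetases and in 0 of 3 scaffold genes. It was present in 3.98% of all 33469 promoters and, counted by gene as for the members, in 4.16% of all 27457 genes. In the 6 genes printed here the copy read TGATGCAA, which 0.795% of all promoters and 0.827% of all genes contained. These stretches are printed each 5′ to 3′ on the strand of the motif, with the motif in capitals and up to 11 bases on each side. They were found by the motif, so only the base at N and the flanks were free to differ. The stretch of Yars1 ends at the edge of the window, and the further gene with the motif was Aars1.

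Cars1, GRCr8 chr1:208225334-208225363: tttccagaatcTGATGCAAccgcggcgccg
Tars1, GRCr8 chr2:62114811-62114840: agctaaccagcTGATGCAAcgggacgccag
Yars1, GRCr8 chr5:146820190-146820212: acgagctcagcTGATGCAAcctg
Mars1, GRCr8 chr7:65023752-65023781: ggagcccacgcTGATGCAAccggaacgggc
Iars1, GRCr8 chr17:15193658-15193687: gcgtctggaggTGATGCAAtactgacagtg
Nars1, GRCr8 chr18:60275778-60275807: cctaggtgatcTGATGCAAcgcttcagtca

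The copies were on the strand of the gene in Yars1 and Nars1 and on the opposite strand in Cars1, Tars1, Mars1 and Iars1. Their first base in the direction of the gene lay between position -27 from the start, in Tars1, and position 39, in Yars1. The window of Eprs1 held no copy, which says only that these letters are not in it. Other known promoter motifs were found in both roles. CTTCCGG was found in 9 of 17 cytosolic and 6 of 16 mitochondrial synthetases, against 8.75% of all promoters and 9.63% of all genes. GCCATNTT was found in 4 and 6 of them, against 6.96% and 7.8%.

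Eprs1 had 3 peaks in the Vector list, of 193, 263 and 161 bp, and 1 peak of 263 bp in the FTO list. They covered 617 bp with Vector and 263 bp with FTO, and the length found in both lists was that of the longest peak. Peak numbers in both lists ran along the chromosomes, with a Spearman correlation between peak number and gene start over genes of chromosome 13 of at least 0.99 in both lists, given as a description. Over 21 chromosomes the lowest correlation was 0.9 in the Vector and 0.91 in the FTO list. The order of the peaks within a gene was read from these numbers. Gene start is the same for all peaks of a gene, so the correlation does not test that order. Peaks of the other members are given in the same way from the 5′ end, by the strand of the gene in GRCr8 and not in the authors' build. The Vector peaks of Eprs1 were numbers 17056, 17058 and 17059, and the gene lies on the plus strand in GRCr8. By this reading the peak of 193 bp came first from the 5′ end, the peak of 263 bp lay between the others and the peak of 161 bp came last. Number 17057 is not among the listed peaks. The first peak was assigned to transcript ENSRNOT00000085214 and the other peaks, including the FTO peak, to ENSRNOT00000038264.

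A difference of this size was also found in other genes. Of the 964 genes with 3 Vector peaks, 26.8% had at most 1 FTO peak, namely 77 genes with none and 181 genes with 1. Another 289 genes had 2 FTO peaks, 286 genes had 3 and 131 genes had 4 or more. Among protein-coding genes around Eprs1 in GRCr8, the only gene with a peak within 3 places on either side was Iars2, the mitochondrial isoleucyl enzyme, which lies 2 places away. Iars2 also went from 3 Vector peaks to 1 FTO peak. Its Vector peaks measured 267, 123 and 145 bp from the 5′ end and its FTO peak 140 bp, so none of its peaks kept its exact length.

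**Figure D1:**
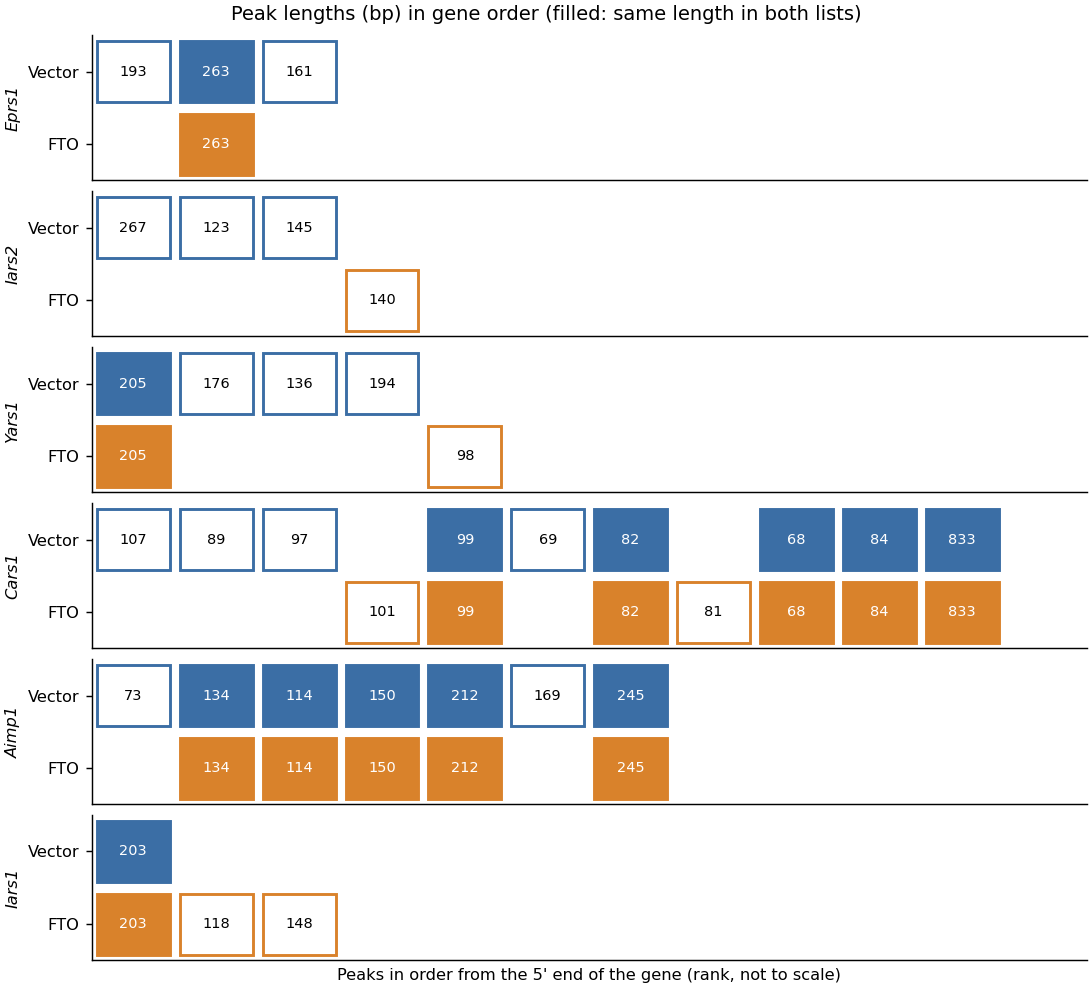
Peaks of Eprs1, Iars2, Yars1, Cars1, Aimp1 and Iars1 in order from the 5′ end of each gene, by rank and not to scale, with the length in bp written in each box, the Vector list above and the FTO list below. Filled boxes have a partner of the same length in the other list, open boxes have none, and the order of open boxes of different lists between the same filled boxes is not known. The order was read from the peak numbers and the strand in GRCr8. Eprs1 kept only the 263 bp peak, whereas Aimp1 kept 5 of 7 peaks and Iars1 had 2 further peaks in the FTO list.

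Among all members, 27 of 38 had a Vector peak (71.1%, 95% Wilson interval 55.2% to 83.0%) and 26 had an FTO peak (68.4%, 52.5% to 80.9%). Of all 23154 protein-coding genes, 32.2% and 29.7% had one, so the members carried called peaks more often than an average gene in both lists. Whether this goes with their transcript level was not tested, and the intervals cover counting error only. The members that had a peak in neither list were Farsb, Mars1, Qars1, Rars1 and Vars1 among the cytosolic enzymes, Ears2, Rars2 and Sars2 among the mitochondrial enzymes, and the scaffold gene Eef1e1.

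The shares of members with fewer, as many and more FTO peaks were close to those of the whole lists. Of the 29 members with a peak, 12 had fewer FTO than Vector peaks, 11 had as many and 6 had more. These are 41.4%, 37.9% and 20.7%, beside 41.4%, 37.4% and 21.2% of all genes with a peak, and the median difference was 0 in both. Together the members had 64 Vector peaks and 54 FTO peaks, a ratio of 0.844, beside 0.837 for the whole lists. When peaks were paired by the same gene and the same length, 40 were common. No FTO partner was found for 24 of the 64 Vector peaks (37.5%, 26.7% to 49.7%), beside 42.7% of all Vector peaks, and no Vector partner for 14 of the 54 FTO peaks (25.9%, 16.1% to 38.9%), beside 31.6% of all FTO peaks. Both background values lie within the intervals of the members. Positions are not given, so a peak without a partner can still overlap a peak of another length in the other list. A peak called kept has a peak of equal length in the other list, and whether both lie at the same place is not known. A peak called added has no partner by this rule. In both groups, the paper counted fewer peaks as unique than this rule left without a partner over the whole lists.

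**Figure D2:**
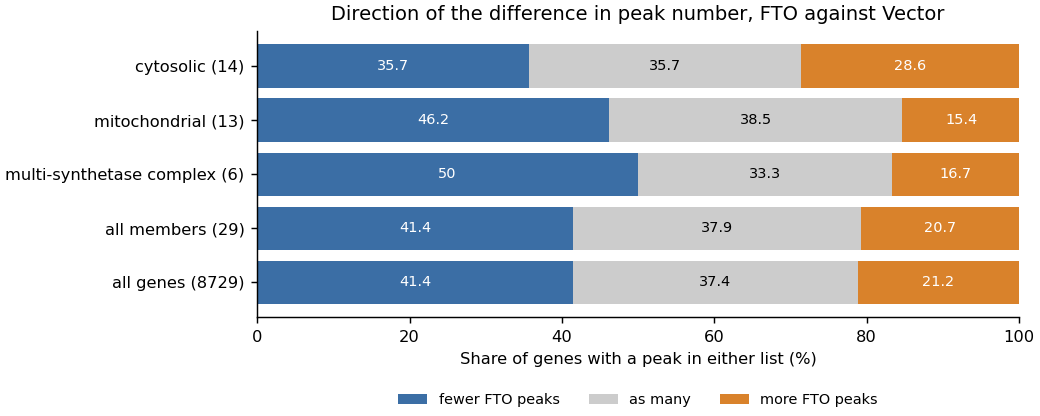
Share of genes, in percent of those with a peak in either list, that had fewer (blue), as many (grey) or more (orange) FTO than Vector peaks, with the number of genes in brackets; the multi-synthetase complex shares members with the cytosolic group. The bar of all 29 members, with 41.4% fewer and 20.7% more, is close to that of all 8729 genes, with 41.4% and 21.2%.

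Cytosolic synthetases had several short peaks per gene, and mitochondrial synthetases mostly had 1 longer peak. The 13 cytosolic enzymes with Vector peaks had 40 peaks, or 3.08 per gene, and the 12 mitochondrial enzymes had 16, or 1.33 per gene, beside 2.69 over all genes with a Vector peak. The median length was 147.5 bp in the cytosolic and 294.5 bp in the mitochondrial group, and 203 bp over all Vector peaks. Peaks shorter than 200 bp made up 77.5% of the cytosolic Vector peaks (62.5% to 87.7%) and 37.5% of the mitochondrial ones (18.5% to 61.4%), beside 49.1% of all Vector peaks. The FTO list showed the same order, with 73.0% (57.0% to 84.6%) and 45.5% (21.3% to 72.0%), beside 44.2% of all FTO peaks, and there the intervals overlapped. Peaks of 1 gene share its transcript, so they are not independent, and the difference between the roles was not tested.

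**Figure D3:**
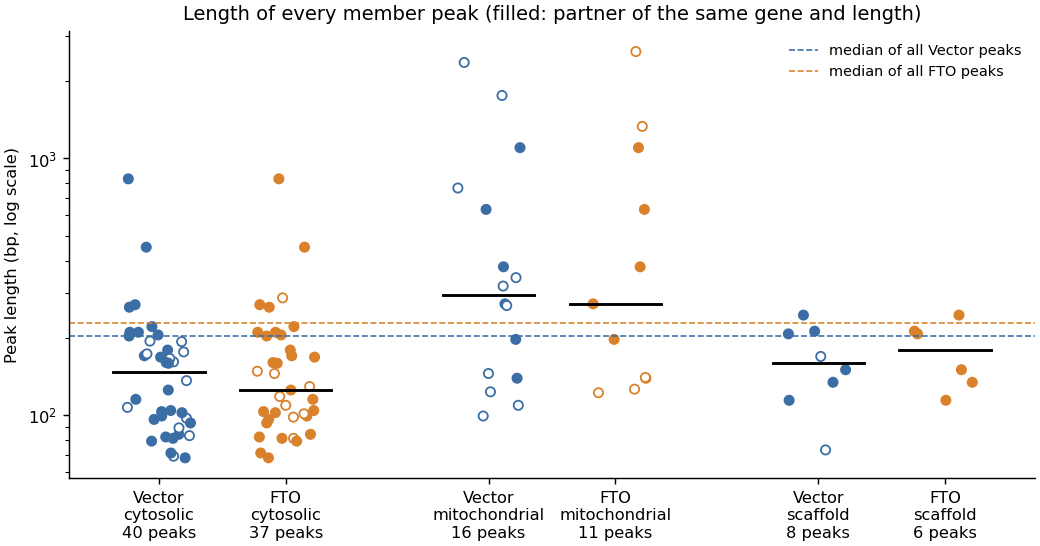
Length of each member peak in bp on a log scale, by role and list, with filled circles for peaks with an equally long peak of the gene in the other list, open circles for those that do not, black lines for the median and dashed lines for the median of all peaks of each list. Cytosolic peaks lie mostly below the dashed lines, and all peaks longer than 833 bp are those of mitochondrial enzymes.

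Among the cytosolic enzymes, 5 had fewer FTO peaks, 5 had as many and 4 had more. These are 35.7%, 35.7% and 28.6% of the 14 with a peak, beside 41.4%, 37.4% and 21.2% of all genes with a peak. Besides Eprs1, the genes with fewer were Cars1, Kars1, Nars1 and Yars1. Cars1, the cysteinyl enzyme, had the most peaks of all members, with 9 Vector peaks and 7 FTO peaks. From the 5′ end its Vector peaks measured 107, 89, 97, 99, 69, 82, 68, 84 and 833 bp, and its FTO peaks 101, 99, 82, 81, 68, 84 and 833 bp. The long peak, which came last, and the 2 peaks next to it were thus listed in both groups, while the first 3 Vector peaks had no partner. Yars1, the tyrosyl enzyme, had 4 Vector peaks of 205, 176, 136 and 194 bp and 2 FTO peaks of 205 and 98 bp, so that it kept the first one from the 5′ end. Kars1, the lysyl enzyme that serves both compartments, had Vector peaks of 166 and 269 bp and an FTO peak of 269 bp. Nars1, the asparaginyl enzyme, had Vector peaks of 104, 83, 93 and 79 bp, of which all but the peak of 83 bp were in the FTO list. That peak was also the only one of Nars1 on another transcript.

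The genes with more FTO peaks were Aars1, Farsa, Gars1 and Iars1. In Aars1, the alanyl enzyme, the Vector peaks of 179, 170 and 210 bp were all kept and a peak of 145 bp was added between the first and the next. In Gars1, the glycyl enzyme of both compartments, the peaks of 210, 102 and 103 bp were kept and a peak of 286 bp was added at the end of the numbering. In Iars1, the isoleucyl enzyme and a subunit of the multi-synthetase complex, 1 Vector peak of 203 bp was kept and peaks of 118 and 148 bp were added. Farsa, a subunit of the phenylalanyl enzyme, had 0 Vector peaks and 1 FTO peak of 129 bp, whereas its partner subunit Farsb had none in either list. Every Vector peak of Aars1, Gars1 and Iars1 had an FTO partner, and their further FTO peaks had none.

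Hars1, Lars1, Sars1 and Tars1 had peaks of the same lengths in both lists. Those of Hars1, the histidyl enzyme, measured 96 and 451 bp, and those of Lars1, the leucyl enzyme, 160 and 125 bp. The peaks of Sars1, the seryl enzyme, were 221, 71 and 159 bp long and those of Tars1, the threonyl enzyme, 168, 81 and 115 bp. Wars1, the tryptophanyl enzyme, had 1 peak in each list, but of 173 bp in the Vector and 109 bp in the FTO list and on different transcripts.

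Of the mitochondrial enzymes, 6 had fewer FTO peaks, 5 had as many and 2 had more. These are 46.2%, 38.5% and 15.4% of the 13 with a peak, beside 41.4%, 37.4% and 21.2% of all genes with a peak. For 3 mitochondrial enzymes the only Vector peak had no counterpart in the FTO list, namely Mars2 with 1761 bp, Nars2 with 343 bp and Yars2 with 767 bp. Across all members these were the only genes with peaks in the Vector list alone, 3 of 29, beside 16.4% of all genes. Peaks in the FTO list alone were found for 2 of 29, Farsa and Wars2, beside 9.57% of all genes, and the FTO peak of Wars2, the tryptophanyl enzyme, measured 1334 bp. The remaining genes with fewer FTO peaks were Iars2 and the leucyl and threonyl enzymes. Lars2 had Vector peaks of 99 and 378 bp and an FTO peak of 378 bp, and Tars2 had Vector peaks of 197 and 318 bp and an FTO peak of 197 bp. No FTO partner was found for 10 of the 16 mitochondrial Vector peaks (62.5%, 38.6% to 81.5%) and for 12 of the 40 cytosolic Vector peaks (30.0%, 18.1% to 45.4%). These intervals overlap, and the former includes the 42.7% of all Vector peaks.

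Pars2, the mitochondrial prolyl enzyme and the counterpart of the prolyl part of Eprs1, had the longest peak of the members. It measured 2368 bp with Vector and 2612 bp with FTO, a difference of 244 bp, and did not count as paired. The counterpart of the glutamyl part, Ears2, had no peak. Vars2, the valyl enzyme, had a Vector peak of 109 bp and FTO peaks of 122 and 126 bp. The single peaks of Aars2 with 1102 bp, Cars2 with 139 bp, Fars2 with 633 bp and Hars2 with 271 bp had the same length in both groups. Including these, 9 of the 29 members (31.0%, 17.3% to 49.2%) had an identical set of lengths in both lists, beside 21.0% of all genes, which lies within that interval.

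Hars1 and Hars2 are neighbours that are read in opposite directions, and both had peaks of identical lengths in the groups. In GRCr8 the promoter window of Hars1 (minus strand, chr18:28672663-28672962) and that of Hars2 (plus strand, chr18:28672606-28672905) share 243 bases.

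The 10 members that belong to the multi-synthetase complex are Eprs1, Iars1, Kars1, Lars1, Mars1, Qars1, Rars1, Aimp1, Aimp2 and Eef1e1, and 6 of them had peaks in both lists. Of these, Eprs1, Kars1 and Aimp1 had fewer FTO peaks, Lars1 and Aimp2 had as many and Iars1 had more, with 16 Vector peaks and 13 FTO peaks in all. The shares with fewer, as many and more were 50%, 33.3% and 16.7%, beside 41.4%, 37.4% and 21.2% of all genes with a peak, and the ratio of FTO to Vector peaks was 0.812, beside 0.837. No FTO partner was found for 5 of the 16 Vector peaks (31.2%, 14.2% to 55.6%), an interval that includes the 42.7% of all Vector peaks. From 6 genes and 16 Vector peaks, these counts are too few to decide whether the complex differs from the whole lists, and this was not tested. The scaffold protein Aimp1 had 7 Vector peaks of 73, 134, 114, 150, 212, 169 and 245 bp from the 5′ end. In the FTO list 5 of them were present, and the first peak of 73 bp and the peak of 169 bp were missing. Aimp2 had 1 peak of 207 bp in each list.

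**Figure D4:**
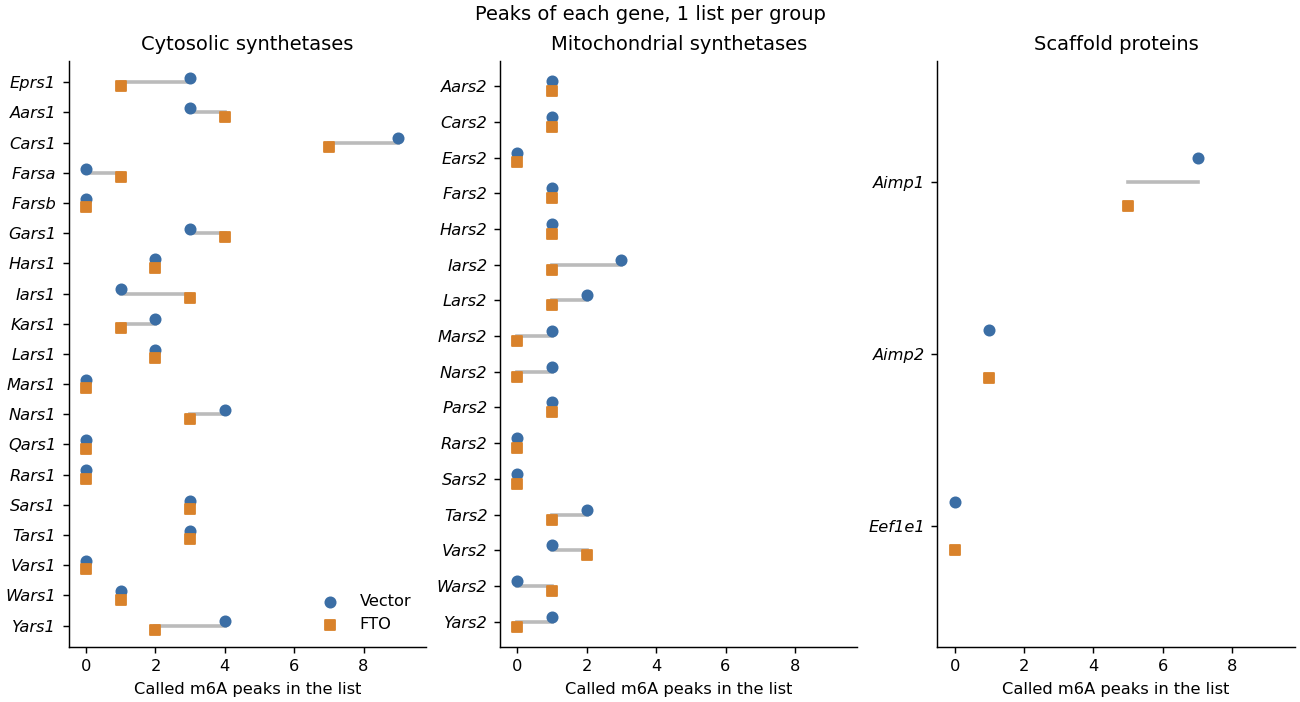
Number of called m6A peaks of each of the 38 genes in the Vector list (blue circles) and the FTO list (orange squares), with a grey line between differing numbers. Cars1 with 9 and 7 and Aimp1 with 7 and 5 stand highest, and no mitochondrial gene exceeds 3.

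The order of the paired peaks was the same in both lists in all 9 members with 2 or more pairs, namely Aars1, Cars1, Gars1, Hars1, Lars1, Nars1, Sars1, Tars1 and Aimp1, and in 99.3% of the 2597 genes of the whole lists with 2 or more pairs of distinct lengths. This order was not used in pairing. The genes with the motif TGATGNAA had 24 Vector peaks and 22 FTO peaks in 6 of the 7 genes, with fewer in 3, as many in 1 and more in 2. The other 12 cytosolic genes, which include Gars1 and Rars1 without an entry, had 16 and 15 peaks in 8 genes, with fewer in 2, as many in 4 and more in 2. Shares with fewer, as many and more were 50%, 16.7% and 33.3% with the motif and 25%, 50% and 25% without. Of all genes with a peak they were 41.4%, 37.4% and 21.2%. The FTO to Vector ratios were 0.917 and 0.938, beside 0.837 for the whole lists. Of the Vector peaks 33.3% (18.0% to 53.3%) and 25.0% (10.2% to 49.5%) had no FTO partner, beside 42.7% of all Vector peaks. These intervals overlap, peaks of 1 gene are not independent, and the difference between the groups was not tested.

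Genes around charging were read from lists of their own. The proline list, with enzymes that make proline, break it down or hydroxylate it in collagen, had a Vector peak for 8 of 13 genes and an FTO peak for 6, beside 32.2% and 29.7% of all protein-coding genes. FTO peaks were fewer for 7 of these 8 genes and as many for 1, beside 41.4% and 37.4% of all genes with a peak. In all there were 25 Vector peaks and 9 FTO peaks, while the ratio over the whole lists was 0.837. Aldh18a1, which starts proline synthesis from glutamate, had 6 Vector and 2 FTO peaks, Oat, the ornithine aminotransferase, had 3 and 0, and the prolyl 3-hydroxylase P3h2 had 4 and 0. P4ha1, a subunit of the collagen prolyl 4-hydroxylase, had 1 peak in each list. No FTO partner was found for 18 of the 25 Vector peaks (72.0%, 52.4% to 85.7%), beside 42.7% of all Vector peaks. Peaks of 1 gene are not independent, the list was chosen with earlier results of these data known, and no test was made. The list of other charging routes, given further below, had 75% from 8 Vector peaks. The list of the amino acid starvation response had a Vector peak for 8 of 15 genes and an FTO peak for 6, beside the same 32.2% and 29.7%. FTO peaks were fewer for 2 of the 8 genes, as many for 5 and more for 1, beside 41.4%, 37.4% and 21.2% of all genes with a peak, with 19 Vector and 18 FTO peaks. No FTO partner was found for 36.8% of its Vector peaks (19.1% to 59.0%). Its sensor of uncharged tRNA, Eif2ak4, had 5 peaks in each list, the amino acid transporter gene Slc7a5 had 3 in each, and Ddit3 had 1 and 0. Atf4 itself had no listed peak.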

How the data were processed

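RNA of neonatal rat CFs was subjected to m6A-IP and sequenced beside the input. For all 4 libraries, the submitters' processing notes name rn6, cutadapt 1.9.3 and HISAT2 2.0.4, and the deposited peak names carry the prefix MACS. The version and threshold of the peak caller and the annotation are not given in the sources used here. The deposited value of each peak is its length in bp, which is not normalized and is of no other unit (per the file headers). No columns were left aside.

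Groups were taken from the labels. Symbols, neighbours and promoters were taken from RefSeq GRCr8 by gene ID, which matched 7489 of 7723 Vector IDs and 6920 of 7145 FTO IDs. Peaks were counted per gene, by transcript for the 248 and 213 peaks without a gene ID. No peak on a member's transcript had another gene ID or none. Peaks were paired 1 to 1 by gene and equal length, a step tested on simulated lists. Shares have 95% Wilson intervals for counting error only. Every member is named. Members, lists and motifs were chosen with earlier results of these data known, and the motifs printed are among several that were searched. The stretch of Aars1 is not reported here. Python 3.11.15, numpy 2.4.6, pandas 2.3.3, scipy 1.17.1 and matplotlib 3.10.9 were used.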

Additional observations from a re-analysis of the deposited data

How the results depend on the processing

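Of 71 values under 10 alternatives, 62 stayed within 1.5 times the count or within the 95% interval of the share. Keeping peaks of at least 200 bp moved 7 values. There were then 22 Vector peaks and 19 FTO peaks of the members, 17 members with an FTO peak, 5 with fewer FTO peaks and 2 with more, Eprs1 had 1 Vector peak, as many as FTO peaks, and 15.8% of the FTO peaks had no partner. Fewer peaks entered by construction. When any peak of the same gene counted as a partner, 26.6% of the Vector peaks and 13% of the FTO peaks had none, since this rule accepts more pairs. A minimum of 100 bp, counting equal lengths of a gene a single time, the main transcript alone and lengths within 10% moved none. The same held for pairing by transcript, FTO numbers multiplied by 1.194, and leaving out Eprs1 or Gars1 and Kars1. With the main transcript alone, however, Eprs1 had 2 Vector peaks instead of 3, just at the limit of 1.5 times, and 1 FTO peak. The multiplied FTO numbers were rounded to whole numbers, so a gene with 1 or 2 FTO peaks could not change. This alternative therefore cannot show how far the list sizes matter for such genes. No paired analysis was possible because neither group was replicated, and for this reason replicates could not be left out. Depth, which is unknown, limits each of these counts.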

Other observations

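Further lists of genes near the synthetases were counted. The list of enzymes that charge tRNA by other routes or proofread it had a Vector peak for 6 of 9 genes and an FTO peak for 5, beside 32.2% and 29.7% of all protein-coding genes. Among its 7 genes that had any peak, 3 had fewer FTO peaks, 3 had as many and 1 had more, beside 41.4%, 37.4% and 21.2% of all genes with a peak. The list had 8 Vector and 5 FTO peaks, and no FTO partner was found for 6 of the 8 (75.0%, 95% Wilson interval 40.9% to 92.9%), beside 42.7% of all Vector peaks, a share as high as that of the proline list but from fewer peaks. Dtd1, which removes D-amino acids from tRNA, had 3 Vector peaks and 1 FTO peak, and Mtfmt, which formylates the mitochondrial initiator tRNA, had 0 and 1. The list of translation elongation had a Vector peak for 2 of 11 genes and an FTO peak for 3, beside 32.2% and 29.7% of all protein-coding genes. Among its 3 genes with any peak, 1 had fewer FTO peaks, 1 as many and 1 more, beside 41.4%, 37.4% and 21.2%. It had 6 peaks in each list, of which 3 Vector peaks had no partner (50%, 18.8% to 81.2%), beside 42.7% of all Vector peaks. Eef2k, the kinase of elongation factor Eef2, had 4 in each, Gfm1 had 2 and 1, and Eef2 itself had 0 and 1. Of the GAIT complex partners of Eprs1, a group that binds certain mRNAs together with Eprs1, Syncrip had 4 Vector and 3 FTO peaks, and Rpl13a and Gapdh had none.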
